A study of Mus musculus with 24 samples.

Results

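The genotype difference in the astrocyte response to lipopolysaccharide (LPS) was measured for every gene as the LPS response of Serpine2 knockouts minus that of controls, called the interaction here. It rests on all 12 astrocyte libraries of the 24 in the series, 3 in each of 4 groups, and was tested on 18188 genes that passed a filter on low counts. Positive values mean that LPS moved a gene upward more, or downward less, in knockouts. The mice were adults injected with saline or LPS, at a dose and time not given in the sources used here. Knockouts were Serpine2-/-, and controls were littermates with a functional copy of the gene on at least one chromosome, so that the control group may mix wild-type and heterozygous animals. The 4 groups were saline controls, saline knockouts, LPS controls and LPS knockouts. Astrocytes came from the cerebral cortex of perfused animals by papain digestion and binding to antibody-coated dishes (immunopanning), so that each library is a bulk preparation and not single cells. Which exons the knockout lacks was not stated.

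Serpine2 encodes protease nexin-1, a secreted serine protease inhibitor that blocks thrombin, plasmin and plasminogen activators at the cell surface and in the extracellular matrix. LPS, a component of the outer membrane of Gram-negative bacteria, is sensed by Toll-like receptor 4 with CD14 and MD-2 and acts on astrocytes in large part through cytokines of microglia, endothelial cells and blood cells. Reactive astrocytes then make intermediate filaments, acute phase proteins, complement, chemokines, antigen presentation genes and interferon-induced proteins, and these groups order the results here. In bulk preparations, fewer cells of a type and less RNA per cell cannot be told apart.

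The libraries held 10944765 to 25135252 gene counts and detected 22272 to 25177 genes, and the 10 most abundant genes took 47.7% to 66.4% of the counts. Xist and the Y-linked Ddx3y matched the sex label in 12 of 12 astrocyte libraries. Astrocyte identity was checked on 12 markers, all of them detected, whose summed level, in gene counts scaled to library size (CPM), was 15300 to 22200 over the 12 libraries. Oligodendrocyte markers (1910 to 5090 CPM), neuron markers (124 to 519) and microglia markers (116 to 425) were also present, while the 10 lymphocyte markers summed to 1.99 CPM or less and 4 of them were at 0 in every library. The third LPS library of each genotype stood apart. Genes raised by LPS lay a median log2 difference of 1.19 above the saline control mean in LPS control 3, against 2.25 and 2.44 in the other LPS controls, and 1.47 in LPS knockout 3, against 2.53 and 2.37 in the other LPS knockouts. Both weaker libraries carried a female label and the other 4 LPS libraries a male one, while each saline group held 1 female. Among LPS libraries sex and replicate number cannot be told apart, and the comparison is also given without both libraries. Nothing in the labels says whether libraries of a group are separate cultures or animals beyond their sibling pairs, so p-values measure the spread between these samples.

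**Figure D1:**
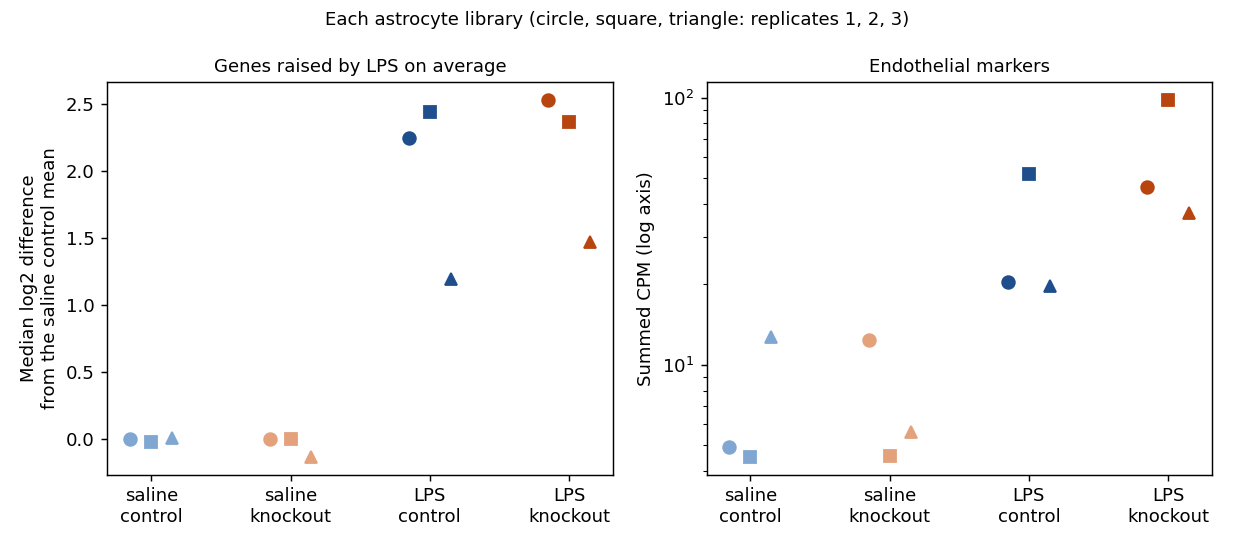
Left, the median log2 difference from the saline control mean over the genes raised by LPS in each library; right, the summed CPM of 10 endothelial markers on a log axis. Points are single libraries, with circle, square and triangle for replicates 1, 2 and 3, and the triangles of both LPS groups lie lowest on the left at 1.19 and 1.47.

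Serpine2 itself (ENSMUSG00000026249, chr1:79794197-79861180, minus strand, GENCODE release 21 on GRCm38) separated the genotypes in both injections. Saline controls held 92.6, 169 and 163 CPM and LPS controls 107, 80.1 and 78.3 CPM. Saline knockouts held 17.8, 17.4 and 22.3 CPM and LPS knockouts 16.9, 16.4 and 18.4 CPM. Every knockout library was lower than every control library, and residual reads on the gene remained in all 6. The LPS response was −0.67 in controls (SE 0.24, edgeR adjusted p 0.232) and −0.15 in knockouts (SE 0.24, adjusted p 0.857), and the interaction was 0.52 (SE 0.34, 95% interval −0.20 to 1.24, unadjusted p 0.144, adjusted p 1). Response and interaction values are log2 fold changes and differences of them throughout.

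The response to LPS had the same direction in both genotypes for the genes that rose most on average, a choice that favours a shared direction. Across the transcriptome, no gene passed the test of the difference. edgeR's quasi-likelihood test called 0 of 18188 genes (0%) at an adjusted p under 0.05, with a smallest adjusted p of 1. At an unadjusted p under 0.05 there were 473 genes (2.6%), where uniform p-values would give 909. DESeq2 also called 0, with 612 unadjusted, and limma voom called 0, with 421. The interaction was positive for 9882 genes (54.3%), with a median of 0.0527 and a middle 50% from −0.33 to 0.44. Gene lists below are read beside those values. Each fit with libraries left out ran the filter anew and tested 19190 to 19426 genes. The tested members of a list could thus change along with the library.

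The LPS response alone was called for 141 genes higher (0.775%) and 28 lower (0.154%) in controls, and for 245 higher (1.35%) and 38 lower (0.209%) in knockouts. Averaged over the genotypes it was called for 905 genes higher (4.98%) and 350 lower (1.92%). With equal groups and like variances that average is orthogonal to the interaction, so genes chosen by it were not directly chosen by their genotype difference. For genes near 0 counts in a saline group of 1 genotype, this holds only roughly. Of the called genes, 704 rose at least 2-fold on average. All 704 moved upward in both genotypes, which choosing genes by the average of both responses makes likely in advance. Their median response was 2.25 in controls and 2.62 in knockouts, the median interaction was 0.198, and 419 (59.5%) were higher in knockouts. In fits with libraries left out, raised and lowered genes were chosen anew, so the genes changed along with the libraries. The median of the raised genes was then −0.0746 without LPS control 3 and 0.471 without LPS knockout 3, the 2 libraries with the weaker response. Without both it was 0.197. The 164 genes that fell at least 2-fold had median responses of −1.42 and −1.36, with 88 (53.7%) higher in knockouts and a median interaction of 0.034. For lowered genes chosen anew the median was −0.595 without LPS knockout 3 and 0.557 without LPS control 3.

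**Figure D2:**
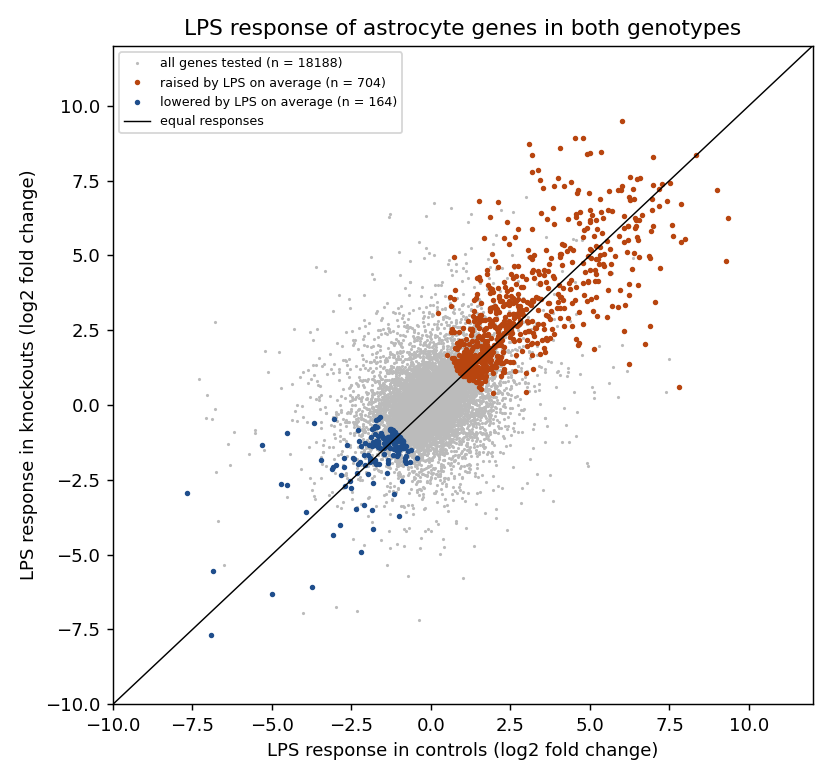
LPS response of each of 18188 genes in controls (x axis) and knockouts (y axis), both as log2 fold changes, with 704 genes raised and 164 lowered at least 2-fold on average in colour. The line marks equal responses, and raised genes lie on both sides of it, 419 above and 285 below.

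How large a difference could have gone unseen depended on the level of the gene. The median SE of the interaction was 0.655 over all genes, 0.401 over the 6924 genes averaging 10 CPM or more, and 1.68 over the 3764 averaging under 1 CPM. The 95% interval lay wholly within a 2-fold difference in either direction for 2737 genes (15%) and within a 4-fold difference for 9777 (53.8%). At 10 CPM or more, 6639 genes (95.9%) had intervals within 4-fold. The genes raised by LPS were measured less tightly, with a median SE of 0.925 and 227 of 704 (32.2%) within 4-fold, and only 21 (2.98%) were within 2-fold. Of the lowered genes, 94 of 164 (57.3%) were within 4-fold. For most LPS-induced genes these libraries therefore do not show equal responses, and they do not show unequal ones.

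**Figure D3:**
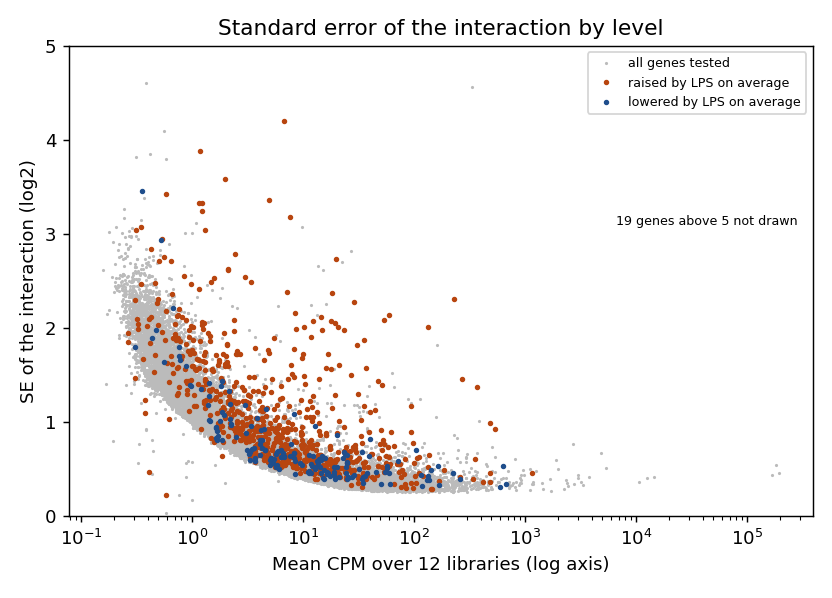
Standard error of the interaction (log2) against mean CPM over the 12 libraries (log axis) for each gene tested, with genes raised or lowered by LPS in colour; 19 genes with an SE above 5 are not drawn. Errors fall with level, from a median of 1.68 under 1 CPM to 0.401 at 10 CPM or more, and raised genes lie above other genes of like level.

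Genes of reactive astrocytes rose on average, with overlapping levels in both genotypes. Lcn2, the secreted siderophore-binding lipocalin-2, held 3.73 to 6.11 CPM in the 6 saline libraries. It stood at 1062, 1036 and 27.04 CPM in LPS controls and at 822, 1122 and 369 CPM in LPS knockouts. The low value belonged to LPS control 3, and the other 5 LPS libraries overlapped between genotypes. Lcn2 responded by 7.26 in controls and 7.39 in knockouts (average 7.33, edgeR adjusted p 0.00164), with an interaction of 0.13 (95% interval −2.97 to 3.24). Gfap, the intermediate filament that defines reactive astrocytes, held 94.7, 73.1 and 89.6 CPM in saline controls against 63.5, 71.3 and 93.4 in saline knockouts. LPS took it to 634, 999 and 236 CPM in controls and 560, 1030 and 333 in knockouts. Both LPS groups were above all saline libraries and overlapped, and the responses were 2.86 and 3.08 (interaction 0.21, −1.09 to 1.52). Vim, a second filament gene, responded by 2.22 and 2.34 (interaction 0.12, −0.92 to 1.15). Serpina3n, another serine protease inhibitor, ran from 9.08 to 17.1 CPM in saline, from 135 to 1404 in LPS controls and from 393 to 1361 in LPS knockouts (interaction −0.27).

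**Figure D4:**
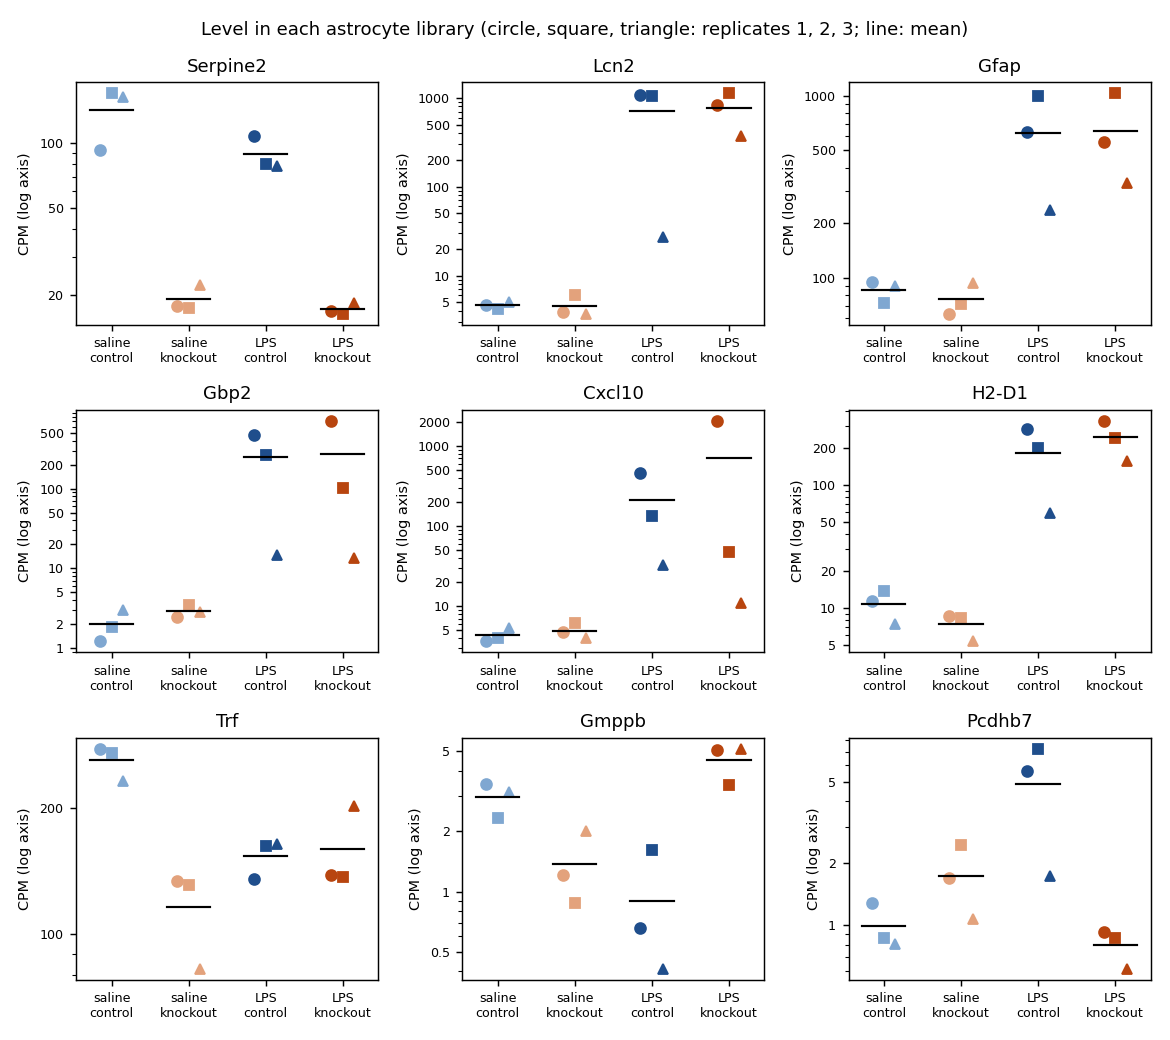
CPM on log axes of 9 genes in each astrocyte library by group, with circle, square and triangle for replicates 1, 2 and 3 and a line at the mean. Lcn2, Gfap, Gbp2, Cxcl10 and H2-D1 rise in both LPS groups with overlapping libraries, Serpine2 is lower in all knockout libraries, and Trf, Gmppb and Pcdhb7 are genes with small unadjusted p for the interaction.

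Of 13 pan-reactive genes, which respond to many injuries, 11 were called higher on average, and their interactions had a median of 0.134 with 9 above 0. Osmr, the oncostatin M receptor, and Cd44 were the members not called. The pan-reactive median was −0.174 without LPS control 3 and −0.386 without LPS knockout 1. All 12 A1 genes tested, the set described for inflammatory injury, were called higher, 10 in each genotype, and 3 had a positive interaction, with a median of −0.489. That was the gene list with the second lowest median, and without LPS control 1 it was 0.0188. Complement component C3 held 0 to 0.342 CPM in saline (0 to 7 counts). It reached 25.1, 14.0 and 1.07 CPM in LPS controls and 13.5, 26.3 and 7.66 in LPS knockouts, so the groups overlapped (6.98 in controls, 5.99 in knockouts, interaction −0.99, −4.11 to 2.14). Amigo2, an adhesion protein, responded by 3.22 and 2.39 (interaction −0.82). Srgn, the proteoglycan serglycin, responded by 4.83 and 3.68 (interaction −1.14). H2-D1 and Iigp1 were the A1 members with the highest interactions. Of 11 A2 genes tested, the set described after ischaemia, 6 were called higher and the median interaction was 0.238, or −0.947 without LPS knockout 1.

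Interferon-induced GTPases, which attack the vacuoles of intracellular pathogens, had the second highest median interaction of the 28 gene lists. Of 15 tested, 14 were called higher on average, 0 in controls and 2 in knockouts by themselves, and 13 had a positive interaction with a median of 0.997 (5.20 in controls, 5.75 in knockouts). No member had an unadjusted p under 0.05, and without LPS knockout 1 the median was −1.02. Gbp2, a guanylate-binding protein, held 1.23 to 3.52 CPM in saline, 476, 268 and 14.6 CPM in LPS controls, and 707, 101 and 13.6 CPM in LPS knockouts. LPS knockout 1 was the highest library and LPS knockout 3 the lowest after LPS, and the interaction was −0.44 (SE 2.01, −5.03 to 4.16). Irgm2, an immunity-related GTPase, held 7.40, 3.65 and 5.36 CPM in saline controls against 2.85, 2.40 and 3.16 in saline knockouts. After LPS it held 44.6, 24.3 and 7.26 CPM in controls and 61.3, 20.6 and 10.9 in knockouts. It was lower in all 3 saline knockouts than in any saline control, and it responded by 2.22 in controls and by 3.47 in knockouts (adjusted p 0.024 in knockouts, interaction 1.25, unadjusted p 0.178). Its neighbour Igtp held 159, 59.3 and 18.0 CPM in LPS controls and 287, 53.3 and 25.3 in LPS knockouts, and the interaction was 0.12 (−3.03 to 3.27). Reads of the Gbp, Irgm and Tgtp genes may be split between near-identical copies, so their single values are uncertain. The GENCODE gene of Irgm2 begins beside the start of Igtp on the same strand, so reads of these neighbours may be ambiguous too.

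The promoters of these genes carry known interferon motifs, shown for a pair of GTPase neighbours and for an interferon-stimulated gene. Each window runs from 160 bases before a RefSeq start of the gene to the base before that start, 5′ to 3′ on the gene's strand, on GRCm38.p6. The Irgm2 window lies inside the longer GENCODE gene of that name (chr11:58199618-58222782), which begins just after the Igtp window. Capitals mark matches, on either strand, to the gamma-activated site TTCNNNGAA or to the interferon-stimulated response element GAAANNGAAA. The windows are chr11:58199396-58199555 (plus strand) for Igtp, chr11:58214817-58214976 (plus strand) for Irgm2 and chr4:156200819-156200978 (minus strand) for Isg15.
Igtp: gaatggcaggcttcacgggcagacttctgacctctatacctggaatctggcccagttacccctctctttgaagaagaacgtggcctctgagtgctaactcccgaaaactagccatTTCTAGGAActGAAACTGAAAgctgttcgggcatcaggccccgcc
Irgm2: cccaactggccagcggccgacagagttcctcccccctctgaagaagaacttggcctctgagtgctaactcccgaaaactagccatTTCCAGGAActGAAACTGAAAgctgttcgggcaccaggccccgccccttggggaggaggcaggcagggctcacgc
Isg15: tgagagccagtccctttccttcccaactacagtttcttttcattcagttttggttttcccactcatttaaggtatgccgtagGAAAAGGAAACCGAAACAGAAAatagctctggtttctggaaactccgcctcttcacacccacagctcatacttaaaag

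Igtp and Irgm2 hold both motifs next to each other, and Isg15 holds overlapping matches of the second alone. In the full windows of 250 bases before to 50 after the start, the gamma-activated site was present in 8.19% of 11457 tested genes with a window (8.3% of all 32851 windows), in 13.3% of 503 genes raised by LPS and in 6 of 10 GTPases (60%). The response element was present in 3.68% of tested genes (3.44% of all windows), 13.5% of raised genes, 12 of 22 interferon-stimulated genes (54.5%) and 9 of 10 GTPases (90%). Raised genes had a median interaction of 0.368 with the gamma-activated site and 0.194 without it, and of 0.354 with the response element and 0.203 without it. The differences between these medians were not tested, and a match is a description of letters and not of binding.

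Most interferon-stimulated genes outside that family rose on average. Of 32 tested, 29 were called higher on average, 13 in controls and 16 in knockouts, and 20 had a positive interaction with a median of 0.321. The median was −0.704 without LPS knockout 1 and −0.0179 without saline control 2. Isg15, a ubiquitin-like modifier, held 0.102 to 1.11 CPM in saline, 32.9, 19.4 and 8.33 CPM in LPS controls, and 46.0, 13.1 and 2.25 CPM in LPS knockouts. Its saline libraries were all higher in knockouts (0.293 to 1.11) than in controls (0.102 to 0.228, or 2, 5 and 3 counts). It responded by 6.88 and 4.90 (interaction −1.98, −5.03 to 1.08), sizes that rest on few saline reads. Usp18, the protease that removes Isg15, responded in the same order, with an interaction of −1.78 (−4.27 to 0.70) and 2, 2 and 6 counts in saline controls. Lgals3bp, a secreted glycoprotein, gave one of the closest bounds in the list. It held 35.9 to 56.0 CPM in saline, 278, 251 and 252 CPM in LPS controls, and 228, 275 and 194 CPM in LPS knockouts. The average response was 2.39 (adjusted p 1.18e-07) and the interaction −0.37 (−0.99 to 0.26), which leaves room for a difference of up to about 2-fold downward.

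LPS-induced cytokines and chemokines had the highest median interaction of the 28 gene lists, 1.36, with 14 of 17 tested members above 0 (82.4%, beside 54.3% of all genes). Of 22 listed, 5 did not pass the filter, and 6 were called higher on average, 2 in controls and 4 in knockouts. The median stayed between 0.773, without LPS knockout 1, and 1.77 when each library was left out in turn. Il1a and Cxcl2 were the members with an unadjusted p under 0.05. Il1a, which encodes interleukin-1 alpha, held 0.715, 2.01 and 1.41 CPM in saline controls against 0.264, 0.0977 and 1.01 in saline knockouts. LPS brought it to 0.754, 0.732 and 0.577 CPM in controls and 1.73, 2.32 and 1.53 in knockouts. All 3 LPS knockouts were above all LPS controls, and the interaction of 3.05 (0.63 to 5.46, unadjusted p 0.0165) combined responses of −0.99 and 2.06. Cxcl2, a chemokine for neutrophils, held 0.730 to 1.63 CPM in saline controls against 0.144 to 0.369 in saline knockouts. After LPS it held 3.54, 4.83 and 1.07 CPM in controls and 5.78, 8.73 and 0.817 in knockouts. It rose in knockouts by 4.28 (adjusted p 0.0195), against 1.52 in controls, with an interaction of 2.75 (0.45 to 5.06, unadjusted p 0.022). All 3 saline knockouts were below all saline controls for Cxcl2, and 2 of 3 were for Il1a, so that the saline libraries contribute to both interactions. The saline knockouts held only 7, 5 and 2 counts of Cxcl2 and 5, 2 and 14 of Il1a.

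The LPS groups of the more abundant chemokines overlapped. Cxcl10, a ligand of Cxcr3, held 3.67 to 6.16 CPM in saline. It stood at 466, 135 and 32.4 CPM in LPS controls and at 2052, 47.5 and 10.9 CPM in LPS knockouts, so that the knockouts held both the highest and the lowest of the 6. The interaction was 1.53 (−3.77 to 6.83, unadjusted p 0.526). Ccl2, the monocyte chemokine, held 7.40, 5.19 and 1.07 CPM in LPS controls and 47.6, 1.56 and 1.12 in LPS knockouts, where 1 library carried the excess (interaction 2.72, −1.46 to 6.89). Ccl5 responded by 6.27 and 7.63 (interaction 1.36), Cxcl9 by 7.43 and 6.82 (−0.61), Il1b by 0.80 and 2.84 (2.05, −0.64 to 4.73) and Tnf by 1.49 and 2.98 (1.49, −1.91 to 4.89). Markers of microglia, which make several of the same cytokines, summed to 175 to 197 CPM in saline controls and 136 to 175 in the saline knockouts. The sums were 118 to 337 CPM in LPS controls and 116 to 425 in LPS knockouts. Sall1 alone held 43.4 of the 118 CPM in LPS control 1 and 51.8 of the 116 in LPS knockout 1. C1qa ran more widely, from 9.43 to 108 CPM over the LPS libraries. Of 12 microglia markers, 11 had a positive interaction (median 0.394, −0.115 without LPS knockout 2, 0.0924 without LPS control 1 and 1.26 without LPS control 3), and their part in the cytokine values was not tested.

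Of 17 NF-kB subunits and feedback inhibitors tested, 4 were called higher on average and 13 had a positive interaction (median 0.505, −0.29 without LPS knockout 1). Nfkbia, the inhibitor IkB alpha, responded by 1.66 and 1.56 (interaction −0.10, −1.61 to 1.41). Tnfaip3, the deubiquitinase A20, held 10.1, 11.6 and 2.47 CPM in LPS controls and 45.7, 9.64 and 5.56 in LPS knockouts, with the excess in LPS knockout 1 (interaction 1.48, unadjusted p 0.122). Among 16 LPS sensing genes 6 were called higher and 1 lower on average, and the median interaction was 0.0883, with Tlr4 at 0.76 in controls and 0.12 in knockouts. Cd14, the LPS co-receptor, held 5.56, 5.56 and 2.89 CPM in LPS controls and 12.4, 3.34 and 4.70 in LPS knockouts and rose in knockouts (3.20, adjusted p 0.0176), against 1.86 in controls (adjusted p 0.166, interaction 1.33, unadjusted p 0.127). JAK-STAT and cytokine receptor genes had 5 of 23 called higher and a median interaction of 0.186 with 16 of 23 above 0. Stat3 responded by 1.61 and 1.68 (interaction 0.08, −1.25 to 1.40).

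Most acute phase, antimicrobial and complement genes tested rose on average. Of 20 acute phase genes 12 passed the filter, which a gene could do through its LPS libraries alone, and all 12 were called higher, 5 in controls and 8 in knockouts. Their median interaction was 0.19, and 8 were above 0. Saa3, an acute phase apolipoprotein, held 1.14 to 1.41 CPM in saline, 177, 285 and 22.2 CPM in LPS controls, and 151, 389 and 93.9 CPM in LPS knockouts. It responded by 6.98 and 7.34 (interaction 0.37, unadjusted p 0.761). Pglyrp1, a peptidoglycan recognition protein stored in neutrophil granules, had the smallest p of the list. It held 0.106 to 0.685 CPM in saline (2 to 15 counts), 1.08, 4.61 and 0.330 CPM in LPS controls, and 16.5, 13.5 and 2.501 CPM in LPS knockouts. The LPS groups overlapped in that 1 control library exceeded LPS knockout 3. Pglyrp1 rose in knockouts by 6.12 (adjusted p 0.00602), against 2.40 in controls (adjusted p 0.233), with an interaction of 3.72 (SE 1.28, 1.02 to 6.42, unadjusted p 0.00975, adjusted p 1).

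Of 35 antimicrobial genes 16 passed the filter, 11 were called higher, 7 in controls and 10 in knockouts, and 12 had a positive interaction (median 0.354, −0.372 without LPS knockout 2). The 12 neutrophil markers summed to 5.99, 8.19 and 6.27 CPM in LPS controls and to 2.58, 26.2 and 4.44 in LPS knockouts. Csf3r alone held 0.33, 0.293 and 5.85 CPM in LPS controls and 0.331, 4.36 and 2.25 in LPS knockouts. S100a8 held 2.31, 3.51 and 0 CPM in LPS controls and 1.44, 6.52 and 0.919 in LPS knockouts. The sum of LPS control 3 was thus mostly Csf3r. The part of neutrophils in the Pglyrp1 values was not tested. Complement genes had 10 of 18 called higher and a median interaction of 0.267 (−0.322 without LPS knockout 2). Serping1, the C1 inhibitor and a serpin like protease nexin-1, held 151, 113 and 10.6 CPM in LPS controls and 85.9, 125 and 45.6 in LPS knockouts (interaction 0.24, −2.27 to 2.74). C1s1, a protease of the first complement complex, was counted 0 times in saline controls and 0 or 1 times in the saline knockouts, and was called higher on average (adjusted p 0.000112). No size of its interaction is given, since it would depend on the prior count.

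Antigen presentation by MHC class I rose, with a median interaction near 0. Of 22 genes, 18 were called higher on average, 11 in controls and 12 in knockouts, and 11 had a positive interaction (median 0.00459). B2m, the light chain shared by class I molecules, gave one of the better measured comparisons. It held 44.7 to 57.1 CPM in saline, 313, 362 and 152 CPM in LPS controls, and 315, 359 and 241 CPM in LPS knockouts. In each genotype 2 LPS libraries lay between 313 and 362 CPM, and the interaction was 0.12 (−0.68 to 0.92). H2-D1, a class I heavy chain, held 11.5, 13.7 and 7.41 CPM in saline controls against 8.55, 8.36 and 5.38 in saline knockouts. With LPS the levels were 285, 200 and 58.9 CPM in controls and 332, 242 and 158 in knockouts, and the LPS groups overlapped. It responded by 4.06 and 5.03 (interaction 0.97, SE 0.62, −0.37 to 2.30, unadjusted p 0.143). H2-K1 responded by 2.75 and 3.07 (interaction 0.32), and H2-Q6 had an interaction of 3.93 (unadjusted p 0.0345), or 2.34 without LPS knockout 1. H2-Q6 was counted 2, 2 and 0 times in the saline knockouts, so its size rests on few reads. Class I heavy chains are near-identical copies whose reads may be split, so their single values are uncertain.

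MHC class II genes had the lowest median interaction of the 28 gene lists, −1.05 over 8 of 12 genes that passed the filter, 3 of them above 0. Their median response was 1.33 in controls and 1.69 in knockouts, the other order, so the list shows no common direction. H2-Ab1, a class II beta chain, held 0.102, 0.0456 and 0.162 CPM in saline controls against 0.106, 1.56 and 0.431 in saline knockouts. After LPS it held 5.56, 4.46 and 1.15 CPM in controls and 2.65, 3.66 and 1.53 in knockouts. It rose in controls by 5.12 (adjusted p 0.0179), against 1.87 in knockouts (adjusted p 0.313), and the interaction was −3.24 (−5.84 to −0.64, unadjusted p 0.0175), or −1.81 without saline knockout 2. H2-Ab1 was counted 2, 1 and 3 times in saline controls and 2, 32 and 6 times in saline knockouts, so these sizes rest on few reads. Saline knockout 2 was the highest saline library for H2-Ab1, and without saline knockout 3 the list's median was 0.108.

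The proteolytic system on which protease nexin-1 acts showed no called difference. Of 25 plasminogen and thrombin genes 20 were tested, 7 were called higher on average, 1 in controls and 3 in knockouts, and 13 had a positive interaction (median 0.471, −0.0541 without LPS knockout 1). F2r, the thrombin receptor PAR1, held 6.58, 4.47 and 6.22 CPM in saline controls against 4.33, 2.54 and 1.58 in saline knockouts. LPS libraries held 9.43, 13.6 and 6.35 CPM in controls and 16.8, 7.33 and 7.56 in knockouts. All saline knockouts were below all saline controls and the LPS groups overlapped. F2r rose in knockouts by 1.90 (adjusted p 0.045), against 0.77 in controls (adjusted p 0.527), with an interaction of 1.13 (−0.18 to 2.44, unadjusted p 0.0863). Plat, tissue plasminogen activator, held 62.5, 39.3 and 14.4 CPM in LPS controls and 106, 38.8 and 18.6 in LPS knockouts (1.51 and 2.29, interaction 0.78, −0.85 to 2.41). Plau, the urokinase activator, ran from 0.0368 to 2.35 CPM over the 12 libraries, with responses of −2.85 and −0.85 that were not called. The other serpins had 11 of 15 tested members above 0 and a median of 0.322.

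Matrix and adhesion genes, the setting in which nexins act, had 6 of 27 tested members called higher and 4 lower on average, and 18 with a positive interaction (median 0.141). Lamc1, a laminin chain of basement membranes, held 39.6, 37.3 and 38.2 CPM in saline controls against 28.1, 23.9 and 26.1 in saline knockouts. After LPS it held 62.2, 40.7 and 25.6 CPM in controls and 123, 52.1 and 47.7 in knockouts. The saline groups did not overlap, with the knockouts lower, and the LPS groups did. Lamc1 rose in knockouts by 1.52 (adjusted p 0.0382), against 0.16 in controls (adjusted p 0.916), and the interaction was 1.35 (0.34 to 2.37, unadjusted p 0.0117), or 0.78 without LPS knockout 1. Ncan, the chondroitin sulfate proteoglycan neurocan, fell on average (adjusted p 0.000644). It held 897, 783 and 855 CPM in saline controls, 780, 850 and 650 in the saline knockouts, 286, 362 and 382 in LPS controls and 423, 539 and 341 in LPS knockouts (interaction 0.49, −0.16 to 1.15). Tnc, tenascin-C, fell on average too (adjusted p 0.000814), with LPS levels of 8.02, 12.3 and 14.1 CPM in controls and 12.6, 15.1 and 25.2 in knockouts (interaction 0.80, −0.07 to 1.67, unadjusted p 0.07). Fn1, fibronectin, had an interaction of 1.06 (−0.85 to 2.96).

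Genes of resting astrocyte functions went both ways after LPS. The 29 homeostasis genes had median responses of −0.0425 in controls and −0.00745 in knockouts, a median interaction of 0.0238 with 15 above 0, and 5 called higher and 4 lower on average. Slc1a2, the main glutamate transporter, held 7647 to 11660 CPM over the 6 saline libraries, 9592 to 12250 in LPS controls and 7202 to 13420 in LPS knockouts. Aqp4, the water channel of endfeet, had an interaction of 0.10 (−0.60 to 0.80), and Slc1a3, a second glutamate transporter, −0.16 (−0.73 to 0.41), so that a 2-fold difference lies outside both intervals. Kcnj10, the potassium channel Kir4.1, held 136, 278 and 283 CPM in LPS controls and 109, 436 and 523 in LPS knockouts (interaction 0.79, −0.44 to 2.03). Agt, angiotensinogen, rose on average (1.88, adjusted p 0.0066), with 38.2, 87.4 and 48.7 CPM in LPS controls and 27.2, 116 and 180 in LPS knockouts (interaction 0.77).

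Glucocorticoid-responsive genes, which follow the stress hormone rise after LPS, had 13 of 23 called higher and 6 of 23 (26.1%) with a positive interaction, with a median of −0.152. Leaving out each library in turn kept that median below 0, from −0.649 to −0.00589. Sult1a1, a sulfotransferase, held 4.71 to 6.66 CPM in saline controls against 5.54 to 7.18 in saline knockouts. Levels after LPS were 27.5, 47.6 and 41.9 CPM in controls and 12.7, 24.4 and 30.5 in knockouts, and the groups overlapped through LPS knockout 3. It rose in both genotypes, by 2.85 in controls (adjusted p 0.000458) and 1.81 in knockouts (adjusted p 0.0105), and the interaction was −1.04 (−1.99 to −0.08, unadjusted p 0.0348, adjusted p 1). Fkbp5, a chaperone of the glucocorticoid receptor, held 99.5, 115 and 12.0 CPM in LPS controls and 93.3, 41.7 and 31.6 in LPS knockouts (6.18 and 5.13, interaction −1.05, −3.27 to 1.18). Tsc22d3, the leucine zipper protein GILZ, responded by 1.25 and 0.64 (interaction −0.61, −1.46 to 0.24).

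Cholesterol synthesis genes had the lowest share of positive interactions among these lists, 3 of 20 (15%), with a median of −0.204 that stayed below 0, from −0.542 to −0.0231, when each library was left out. On average 8 were called lower and 0 higher, and 2 were called lower in knockouts. Insig1, which restrains sterol synthesis, responded by −0.71 and −1.10 (interaction −0.39, unadjusted p 0.191). Dhcr7, the last enzyme of one branch, held 60.5, 55.0 and 58.1 CPM in LPS controls and 58.5, 44.0 and 57.8 in LPS knockouts (interaction −0.37, −1.05 to 0.32).

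Other lists lay near the values of all genes. Glycolysis genes had a median interaction of 0.011, genes of the unfolded protein response 0.0494, cytosolic ribosomal protein genes 0.0914 and immediate early and dissociation stress genes −0.0698. The 7 mitochondrially encoded messenger RNAs tested were all above 0 with a median of 0.2, and 17 of 24 nuclear oxidative phosphorylation genes were above 0 with a median of 0.229. Rplp0, a ribosomal stalk protein, rose on average (1.48, adjusted p 0.0003) to 29.5, 44.1 and 27.8 CPM in LPS controls and 26.4, 50.3 and 38.9 in LPS knockouts (interaction 0.48). Cell cycle genes had a median of −0.146, and their lowest member was the mitotic kinase Cdk1, counted 15, 5 and 4 times in saline controls, 22, 35 and 0 in the saline knockouts, 2, 5 and 6 in LPS controls and 0 in all LPS knockouts. Metallothionein and iron genes had a median of −0.136. Of the 28 gene lists, 23 changed the sign of their median when 1 or another library was left out. When the weaker LPS library of each genotype was left out, 3 did. The filter was run anew in these fits, so a change of sign may come from the members tested as well as from the library.

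**Figure D5:**
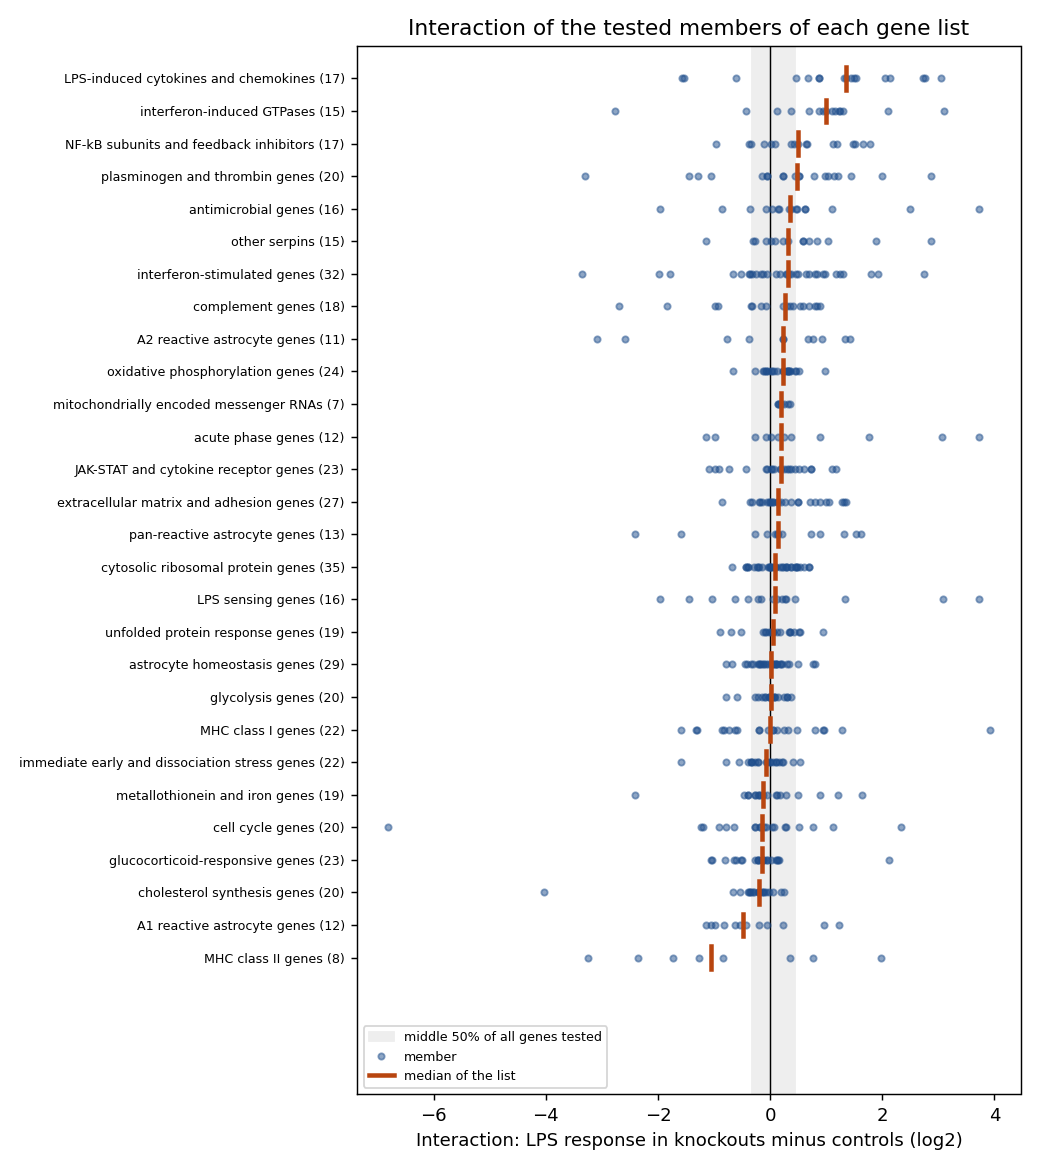
Interaction (log2, LPS response in knockouts minus controls) of every tested member of the 28 gene lists, one row a list with the number tested in parentheses, ordered by the median (bar), with the middle 50% of all genes shaded. Medians run from −1.05 for MHC class II genes to 1.36 for cytokines and chemokines, and members of most lists lie on both sides of 0.

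The genes with the smallest p for the interaction were mostly of low level, and none was called. Of the 100 with the smallest p, 41 averaged under 1 CPM, 14 averaged 10 CPM or more and 36 were predicted genes. In 83 of the 100 the responses had opposite signs in the genotypes, which a small p favours in genes without a shared response. Gmppb, a subunit of GDP-mannose pyrophosphorylase (chr9:108049242-108052801, plus strand), had the smallest p. It held 3.42, 2.33 and 3.14 CPM in saline controls, 1.21, 0.880 and 2.01 in the saline knockouts, 0.660, 1.61 and 0.412 in LPS controls and 5.08, 3.39 and 5.16 in LPS knockouts. The genotypes did not overlap in either injection and were in opposite order. The interaction was 3.46 (SE 0.81, 1.76 to 5.17, unadjusted p 0.000492, adjusted p 1). Pcdhb7, a clustered protocadherin of cell adhesion, was the reverse. It held 0.811 to 1.28 CPM in saline controls, 1.08 to 2.44 in the saline knockouts, 5.61, 7.24 and 1.73 in LPS controls and 0.921, 0.862 and 0.613 in LPS knockouts, and the interaction was −3.42 (SE 0.86, −5.23 to −1.61, unadjusted p 0.000967).

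Trf, the iron carrier transferrin, was the only named gene of this kind above 100 CPM. It held 276, 270 and 231 CPM in saline controls against 134, 131 and 82.9 in saline knockouts. After LPS it held 136, 162 and 164 CPM in controls and 138, 137 and 202 in knockouts. The genotypes were apart in saline and overlapped after LPS, so that the interaction of 1.21 (SE 0.33, 0.52 to 1.90, unadjusted p 0.00182, adjusted p 1) lay in the saline libraries. In the brain Trf is made by oligodendrocytes and choroid plexus, and values of oligodendrocyte genes are given beside it. Cldn11 and Opalin were the 2 of 8 oligodendrocyte markers with an unadjusted p under 0.05. Cldn11, a tight junction protein of myelin, held 46.3, 65.5 and 41.4 CPM in saline controls, 25.3, 30.8 and 19.5 in the saline knockouts, 41.4, 43.0 and 31.0 in LPS controls and 29.8, 47.0 and 37.4 in LPS knockouts (interaction 1.00, unadjusted p 0.0134). Opalin, a myelin membrane protein, held 48.6 to 56.3 CPM in saline controls, 17.0 to 46.3 in the saline knockouts, 10.0 to 18.3 in LPS controls and 16.5 to 20.1 in LPS knockouts (interaction 1.05, unadjusted p 0.0265). Mbp, the most abundant marker of the list, held 2510, 1680 and 1370 CPM in saline controls and 2090, 1390 and 1360 in saline knockouts. After LPS it held 2230, 3200 and 1280 CPM in controls and 1260, 3450 and 988 in knockouts, with overlap in both injections. Of 8 oligodendrocyte markers 6 had a positive interaction (median 0.364, lowest −0.097). Their summed level was 4485, 3916 and 3468 CPM in saline controls, 3783, 2788 and 2324 in the saline knockouts, 3725, 5006 and 2638 in LPS controls and 2367, 5087 and 1913 in LPS knockouts, and their part in Trf was not tested.

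Other genes named for small p included Abca9, a lipid transporter of the ABC family, at 3.20, 10.3 and 11.6 CPM in LPS knockouts and 0.660, 1.68 and 3.38 in LPS controls (interaction 3.26, SE 0.83, unadjusted p 0.00108), and Slco3a1, an organic anion transporter (interaction 2.22, SE 0.63, unadjusted p 0.00269). Abca9 rose in knockouts by 2.59 (adjusted p 0.0401). Gpr84, a receptor for medium-chain fatty acids on myeloid cells, was counted 0, 10 and 13 times in saline controls, 0, 0 and 1 in the saline knockouts, 7, 3 and 6 in LPS controls and 89, 41 and 17 in LPS knockouts (adjusted p 0.0419 in knockouts, interaction unadjusted p 0.00269). Mmp23 (unadjusted p 0.00171), Wdr25 (0.00299), Cryba4 (0.00308) and Lrrc29 (0.00451) were also among those higher in knockouts. Mmp23 was at 2 counts or fewer in every saline knockout, so its fitted value depends on the prior count and is not given.

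On the negative side, Cby1, a regulator of beta-catenin and cilia, held 6.23, 5.80 and 6.92 CPM in saline controls, 10.0, 12.95 and 7.68 in the saline knockouts, 10.2, 10.3 and 13.2 in LPS controls and 6.08, 7.06 and 7.50 in LPS knockouts. The genotypes did not overlap in either injection, in opposite order, and the interaction was −1.40 (SE 0.43, unadjusted p 0.00458). Ppp1r1a, an inhibitor of protein phosphatase 1, had an interaction of −2.31 (unadjusted p 0.00322) and Taf6, a subunit of the general transcription factor TFIID, −1.92 (unadjusted p 0.00352). Mum1 (unadjusted p 0.00464), Map4k1 (0.00252), Iqgap3 (0.00309), Nyx (0.00615), Med9os (0.00644) and Slc18a1 (0.00683) completed the 10, with Pcdhb7 among them.

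Myoc and Fezf2 were among the genes called lower on average. Myocilin, a secreted glycoprotein known from glaucoma, held 11.4, 15.9 and 24.7 CPM in saline controls against 8.50, 5.57 and 16.4 in saline knockouts. In LPS libraries it stood at 0, 1.17 and 1.24 CPM in controls and 2.03, 5.55 and 8.37 in knockouts. It fell in controls by 4.52 (adjusted p 0.022), against −0.94 in knockouts (adjusted p 0.637), and all LPS knockouts were above all LPS controls. The interaction was 3.58 (SE 1.09, 1.26 to 5.91, unadjusted p 0.00506, adjusted p 1). Without a filter on low counts edgeR gave nearly the same value, 3.6, with a smaller SE of 0.613 and an adjusted p of 4.95e-05. That fit also called genes that rested on 1 library, so its p-value is not read as a call of Myoc. Fezf2, a transcription factor of deep-layer cortical neurons, held 26.96 to 43.6 CPM in saline, 7.78, 12.5 and 31.7 CPM in LPS controls and 2.98, 5.82 and 9.80 in LPS knockouts. It fell in knockouts by 2.53 (adjusted p 0.012), against −0.92 in controls (adjusted p 0.42), with an interaction of −1.61 (−2.93 to −0.29, unadjusted p 0.0198), or −0.84 without LPS control 3.

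Sned1, a matrix protein, held 47.7, 58.9 and 56.6 CPM in saline controls against 51.3, 63.7 and 62.8 in saline knockouts. LPS took it to 9.71, 14.3 and 25.9 CPM in controls and 10.6, 16.9 and 17.8 in knockouts. It fell in both genotypes, by 1.72 in controls (adjusted p 0.0119) and by 1.97 in knockouts (adjusted p 0.00508), with an interaction of −0.26 (−1.16 to 0.64). Apln, the ligand apelin, held 50.1 to 83.8 CPM in saline controls, 52.2 to 74.5 in the saline knockouts, 6.18 to 26.1 in LPS controls and 5.30 to 28.9 in LPS knockouts (interaction 0.32, −1.46 to 2.09). Rpe65 responded by −1.85 and −3.52 (interaction −1.67, unadjusted p 0.106). Cdh4, Col11a2, Fam184b, Dctd and Shisal1 had interactions from −0.35 (Dctd) to 0.61 (Shisal1), none with an unadjusted p under 0.05.

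Most endothelial markers rose with LPS in these preparations and had positive interactions. The summed level of 10 endothelial markers was 4.90, 4.52 and 12.7 CPM in saline controls, 12.3, 4.55 and 5.60 in the saline knockouts, 20.3, 51.8 and 19.6 in LPS controls and 46.1, 97.8 and 37.1 in LPS knockouts. The LPS groups overlapped through LPS control 2. Of 9 tested, 7 were called higher on average and 7 had a positive interaction (median 1.05, 0.161 without LPS knockout 2 and 0.187 without saline control 3). Slco1a4, a transporter of the blood-brain barrier, held 2.92, 7.53 and 1.81 CPM in LPS controls and 4.49, 10.9 and 5.72 in LPS knockouts (interaction 1.28, −0.46 to 3.02). Oligodendrocyte precursor markers had 6 of 6 above 0 (median 1.37), or a median of −0.127 without LPS knockout 2, the library in which their sum reached 302 CPM against 38.8 to 151 in the others. Pericyte markers had a median of 0.494 (−0.0402 without LPS knockout 2) and vascular fibroblast markers one of 0.74 (−0.139 without saline control 2). Pdgfra, a member of both the precursor and the fibroblast list, held 123 CPM in LPS knockout 2, where the fibroblast sum was 144. Of the 11 marker lists with at least 3 tested members, out of 14, 8 had a median that changed sign when 1 library was left out. The markers that passed the filter could change in those fits too. Astrocyte markers stood at 0.068 and neuron markers at −0.0618. Monocyte markers summed to 36.0 to 167 CPM over the 12 libraries (median interaction 0.896 over 3 tested, 0.326 without LPS knockout 1). Most of that sum was Vcan (30.4 to 158 CPM), with Fn1 at 0.502 to 32.6. Ccr2 reached at most 0.141 CPM, Plac8 0.269, Ly6c2 0.7 and Chil3 4.74, so the sum says little about monocytes. Border macrophage markers summed to 2.22 to 10.3 CPM, erythrocyte markers to 0.479 to 6.79 and ependymal and choroid plexus markers to 2.87 to 15.8. The part of these cells in the chemokine, matrix and serpin values was not tested.

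Set beside microglia of the same study, the astrocyte values were not shown to be particular to astrocytes. Microglia came from whole brain by another preparation and with another annotation, so cell type cannot be told apart from those. One microglia library, labelled female, had more Ddx3y than Xist counts, the male pattern, so that 11 of 12 matched. In microglia, edgeR called 0 of 22230 genes for the interaction, with 251 (1.13%) at an unadjusted p under 0.05. The microglial minus the astrocytic interaction was called for 0 of 24607 genes (0%), with 1221 (4.96%) at an unadjusted p under 0.05 and a smallest adjusted p of 0.61. limma voom called 0 and DESeq2 9, among them Cby1, Map4k1 and Nyx. Without the mismatched microglia library edgeR called 0, with 1103 unadjusted. Pglyrp1 had an interaction of −1.12 in microglia, a difference of −4.94 from astrocytes (−7.74 to −2.14, unadjusted p 0.00124). Gmppb stood at 0.58 in microglia (unadjusted p of the difference 0.0117), Myoc at −0.11 (0.0102), Trf at 0.26 (0.104) and Serpine2 at −0.09 (0.192). Gmppb, Trf, Cby1, Map4k1 and Nyx were named for a small interaction p in astrocytes, and Pglyrp1 had the smallest of its list. The difference reuses those astrocyte values, so this choice favours a small p of the difference. The medians in microglia and astrocytes were 0.305 and 1.36 for cytokines, 0.283 and 0.997 for GTPases, 0.168 and −0.489 for A1 genes, −0.82 and 0.354 for antimicrobial genes, and 0.185 and −0.204 for cholesterol synthesis genes.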

How the data were processed

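RNA was sequenced from 12 astrocyte preparations, 3 in each of 4 groups. STAR 2.6.0c and HTSeq are named in the submitters' processing notes for alignment and counting. GRCm38 and GRCm39 are named there without a role, and strand, counting mode and annotation were not given in the sources used here. The deposited values are raw whole-number counts per Ensembl gene, with no normalization by the authors. Of 55487 identifiers, 55141 were given a symbol, and HTSeq's summary lines stayed out of library sizes (reads outside annotated genes came to 15.9% to 21.1%). Overlapping and antisense genes cannot be told apart without strand. Depths are given with the libraries.

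Counts were analysed in R 4.3.3 with edgeR 4.0.16: filterByExpr (minimum count 10, minimum total 15), TMM, a robust quasi-likelihood fit with 1 mean per group over the 12 libraries (8 residual degrees of freedom before moderation), and two-sided tests adjusted by Benjamini-Hochberg over all genes, called under 0.05. CPM are TMM-scaled, with a prior count of 2 on the log2 scale. SEs were taken from the fold change and the quasi-F statistic, and intervals are 95%. No molecular identifiers were used, so reads are not independent molecules and errors cover the spread and counting only. Every pair of replicates differed by more than sampling noise (chi-square per degree of freedom 21.4 to 156). The fit was also run on simulated counts with the same dispersion for every gene and effects planted only in well-counted genes. That run does not cover genes with few counts or a wide spread between libraries. Microglia were fitted alone, and with astrocytes for the difference.

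The comparison, 28 gene lists and 14 marker lists were chosen with earlier results of these data known, and lists are described without a test. Genes are named if targeted, if among the 10 per direction with the smallest interaction p, if among up to 10 per direction with the largest called averaged LPS response at 8 CPM or more, or as members of a described list. Predicted genes are counted only, and some genes that the rule names are not reported here. Alternatives were RLE factors, DESeq2 1.42.0, limma 3.58.1 voom, no filter, a minimum count of 50, sex, replicate blocks, the share of reads outside genes, leaving out mitochondrial and ribosomal RNA, and leaving out libraries.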

Additional observations from a re-analysis of the deposited data

How the results depend on the processing

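The count of 0 called interactions held with RLE factors (474 unadjusted), DESeq2 (612, smallest adjusted p 0.223), limma voom (421), a minimum count of 50 (222 of 12509), sex (519), without mitochondrial and ribosomal RNA (467), with the share of reads outside genes (525), without the weaker LPS library of each genotype (734) and with each library left out in turn (0 to 0, 494 to 820 unadjusted). With no filter 13 of 34277 were called. The labels do not say that replicate numbers mark the sibling pairs. Same-numbered LPS libraries deviated together (0.297, 0.157 and 0.354) and saline ones did not (−0.0998, −0.0094 and 0.00708). With a replicate block within injection 0 were called (583 unadjusted, smallest adjusted p 0.866), and with the number as a block across groups 0 (507).

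Counts of LPS calls moved more. From 169 in controls, DESeq2 gave 639, voom 67, no filter 804, sex 295, the replicate block by number 286, and the fit without those 2 LPS libraries 734. From 283 in knockouts these were 827 with DESeq2, 65 with voom, 1027 with no filter and 912 without both libraries. The averaged 1255 became 1917 with DESeq2, 2033 with no filter and 2232 without both. Leaving out each library gave 36 to 476 in controls, 38 to 561 in knockouts and 727 to 1714 averaged, with medians of −0.0746 to 0.471 for raised and −0.595 to 0.557 for lowered genes and 0.376 to 0.755 for the Serpine2 interaction. Raised and lowered genes, and the genes tested, were chosen anew in each of those fits. The microglial minus astrocytic difference gave 9 with DESeq2, 66 with no filter and 0 to 1 with each library left out. The cause was not tested. Of 58 averaged responses of named genes 42 were called under every setting that gave a value, and calls of Cxcl10, Gbp2, Ccl2, Gbp4 and Iigp1 were lost in 7 to 10 settings. The 34 interactions followed over the settings kept their sign. Apart from Serpine2 they were genes with a small unadjusted p, a choice that favours a stable sign. Other single-gene interactions given above, such as those of Lcn2, Gfap and Gbp2, were not followed. Of the genes raised by LPS, 32.2% had intervals within a 4-fold difference, and depth was not varied.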

Other observations

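The 13 interactions called without a filter on low counts were chosen after their values were seen, and several rested on 1 library. Of them 9 also passed the filter and were not called there. Cftr, the chloride channel of epithelia, was counted 950 times in LPS knockout 3, and St6gal2, a sialyltransferase, 3472 times in saline knockout 2. Parp14, an interferon-induced ADP-ribosyltransferase, held 35.5, 9.29 and 5.28 CPM in LPS controls and 181, 10.0 and 4.59 in LPS knockouts. Gpr17, a receptor of differentiating oligodendrocyte precursors, held 17.6, 14.7 and 7.63 CPM in saline controls, 6.54, 4.55 and 2.94 in the saline knockouts, 4.86, 11.3 and 22.9 in LPS controls and 1.92, 43.1 and 22.6 in LPS knockouts.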
